A study of Mus musculus with 6 samples.

Results

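The genes described here encode the signalling part of the T cell receptor and its first cytoplasmic partners, in NKT cells of the mouse thymus sorted by CD103. Members were the 9 genes Cd3e, Cd3d, Cd3g, Cd247, Zap70, Lat, Lcp2, Thy1 and Cd5, taken with all probes that the array annotation gives to them. These were 18 of 45263 probes, and 17 of the 18 were detected on at least 3 of the 6 arrays and were tested. All cells were mature thymic natural killer T cells, positive for CD44 and NK1.1, from male C57BL/6 mice, and no genetic change or treatment is given in the labels. One population carried CD103, an integrin chain that binds E-cadherin, at its surface and the other did not. Each population was measured on 3 Illumina arrays, given as biological replicates, and the comparison asks how transcript levels differ between the 2 populations. How many mice each replicate came from is not given in the sources used here.

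The receptor of an NKT cell is an invariant alpha chain paired with a beta chain, which together recognise lipids held by CD1d. These chains have hardly any cytoplasmic part, so the signal is carried by the CD3 epsilon, delta, gamma and zeta chains, whose tails are phosphorylated when the receptor is engaged. The kinase ZAP-70 docks on the phosphorylated tails and phosphorylates the adaptors LAT and SLP-76, which then gather the enzymes that raise calcium and activate Ras. CD5 and Thy-1 are surface glycoproteins of T cells, of which CD5 dampens receptor signals and Thy-1 sits in the outer leaflet on a lipid anchor.

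Brightness varied between the arrays, with a mean signal of 501.6 to 825.9 on the CD103+ arrays and 526.1 on CD103- array 1, but 277.4 and 276.5 on CD103- arrays 2 and 3. Values below are therefore log2 signals after background correction and quantile normalization unless stated otherwise, and differences are CD103+ minus CD103-. The sort was visible in Itgae, which encodes CD103 and had a log2 difference of 4.73 (SE 0.181, limma adjusted p = 9.50e-05, n = 3 per group). The summed level of 13 macrophage genes was 3060 to 4023 on the CD103+ arrays and 388 to 461 on the CD103- arrays. All 12 measured genes had a positive log2 difference, as had 5116 of all 8999 genes. However, 9 of the 13 were detected on no CD103- array. Those of them that were measured passed the filter only because all CD103+ arrays detected them, so no count of calls is given. Spi1, 1 of the 13, was detected on no array. The summed level of 7 NK cell genes, most of it from Fcer1g, was 6766 to 7957 on the CD103+ and 2436 to 2820 on the CD103- arrays. Of 5 measured genes 4 had a positive log2 difference. Of the 7 genes 3 were detected on no CD103- array, and of these Ncr1 and Eomes were detected on no array. The remaining gene passed the filter only through the CD103+ arrays, so no count of calls is given. The 3 gamma delta T cell genes with a probe, Blk, Sox13 and Trgv4, summed to 5834 to 6841 on the CD103+ and 4622 to 4671 on the CD103- arrays. Most of this sum came from Trgv4. Of these, Blk and Sox13 were detected on no CD103- array and passed the filter only through the CD103+ arrays. The summed level of 7 genes of double-positive thymocytes, most of it from Cd8b1, ran the other way. It was 1565 to 2020 on the CD103+ and 2228 to 2425 on the CD103- arrays. Cd8a and Rag2, among the 7, were detected on no array. The part of these markers in the results below was not tested. The T cell genes Cd3e, Cd3d, Cd3g, Cd247 and Cd2, all but Cd2 members, summed to 58748 to 61559 on the CD103+ arrays and 53950 to 55196 on the CD103- arrays. This sum was not tested, and its direction depends on the scaling. With median scaling the differences of Cd3e, Cd3d and Cd3g were -0.24, -0.37 and -0.22. In such bulk samples fewer cells of a type and less RNA per cell cannot be told apart.

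None of the 9 genes passed an adjusted p of 0.05 between CD103+ and CD103- cells in limma's test, where 1.38% of the 8999 genes measured did, 1.16% higher and 0.222% lower in CD103+ cells. By probe it was 0 of 17, beside 1.18% of all probes tested. At an unadjusted p under 0.05 there was 1 of 9, Thy1, against 14.2% of all genes. By the brightest probe of each gene, 4 differences were positive and 5 negative, from -0.73 for Thy1 to 0.31 for Cd3g, with a median of -0.03 beside 0.05 over all genes. The median size of the difference, whatever its sign, was 0.17 for the members and 0.19 for all genes. The populations did not overlap in Thy1, Cd3g and Cd3e, 3 of 9 genes, while 23.2% of all genes had such separated groups. For one gene, the smallest two-sided exact permutation p that 3 and 3 arrays allow is 0.1, and precision is limited by how few arrays there were.

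**Figure D1:**
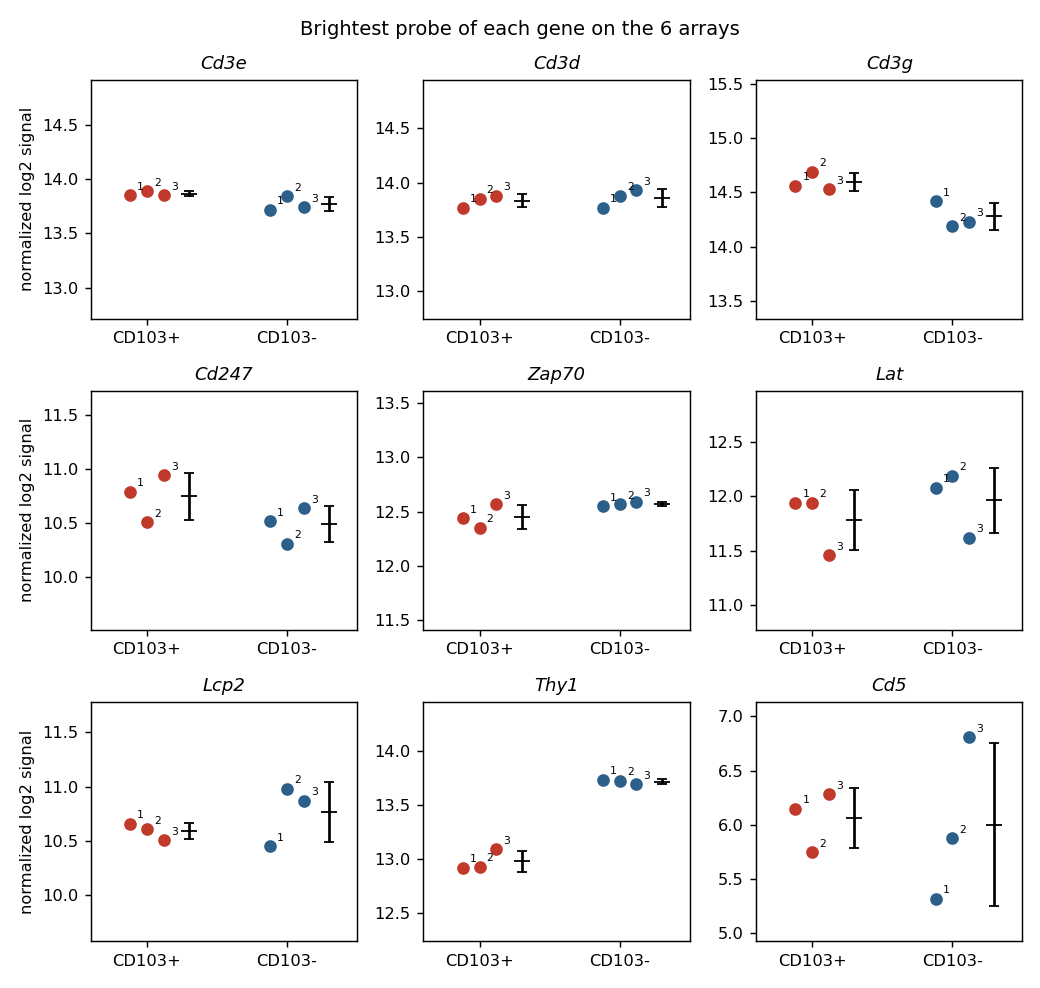
Normalized log2 signal of the brightest probe of each of the 9 genes on each array (points, numbered by replicate), with mean and SD of the 3 arrays of a population beside them. Each panel spans the same range of log2 units; the Thy1 arrays part without overlap, at 12.92 to 13.09 in CD103+ and 13.69 to 13.73 in CD103-, while Cd3d overlaps.

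The CD3 chains that pair with the receptor were bright on every array, with a detection p of 0. Cd3e, the epsilon chain found in both CD3 dimers, had log2 signals of 13.85, 13.89 and 13.85 in CD103+ cells and 13.72, 13.84 and 13.74 in CD103- cells. The CD103+ arrays were all above the CD103- arrays, but by little more than the spread within CD103- (SD 0.06, n = 3). The log2 difference was 0.10 (SE 0.130, 95% interval -0.20 to 0.40, adjusted p = 0.753), and a second Cd3e probe gave 0.12 (adjusted p = 0.706). Cd3d, the delta chain, lay at 13.77, 13.85 and 13.88 in CD103+ and at 13.77, 13.88 and 13.93 in CD103- cells. Its groups overlapped fully, and the difference was -0.03 (SE 0.133, 95% interval -0.34 to 0.29, adjusted p = 0.942). Under this scaling alone, the interval runs from 1.26-fold down to 1.22-fold up. With median scaling Cd3d was -0.37, outside that interval, and in the authors' values it was -0.26. Cd3g, the gamma chain, lay at 14.56, 14.69 and 14.53 in CD103+ and at 14.42, 14.19 and 14.23 in CD103- cells. Here the groups did not overlap, and CD103- array 1, the bright one of its population, was the nearest to the CD103+ arrays. The difference of 0.31 (SE 0.141, 95% interval -0.02 to 0.64, adjusted p = 0.357) did not pass, and the sign of the Cd3e and Cd3g differences followed the scaling: with median scaling they were -0.24 and -0.22, and in the authors' values -0.13 and -0.10.

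The 3 CD3 genes lie together on chromosome 9, and their promoter windows are shown as a description. Cd3g and Cd3d have start sites 1355 bases apart and are read in opposite directions. Neither of their differences, 0.31 and -0.03, passed the threshold, and the ratio of their signals overlapped between the populations. Any part of these sequences in the differences was not tested. Each window runs from 250 bases before to 50 bases after the start in RefSeq on GRCm38.p6, in the gene's own direction. Capitals mark the letters CANNTG, the E-box read by E proteins, which take part in T cell gene expression.
Cd3g, chr9:44980382-44980681, minus strand: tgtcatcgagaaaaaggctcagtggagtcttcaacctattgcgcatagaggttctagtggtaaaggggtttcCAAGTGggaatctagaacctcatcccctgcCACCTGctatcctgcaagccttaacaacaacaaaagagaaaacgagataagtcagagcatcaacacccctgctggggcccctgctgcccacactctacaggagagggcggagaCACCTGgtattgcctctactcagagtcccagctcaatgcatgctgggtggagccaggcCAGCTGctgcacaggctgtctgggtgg
Cd3d, chr9:44981536-44981835, plus strand: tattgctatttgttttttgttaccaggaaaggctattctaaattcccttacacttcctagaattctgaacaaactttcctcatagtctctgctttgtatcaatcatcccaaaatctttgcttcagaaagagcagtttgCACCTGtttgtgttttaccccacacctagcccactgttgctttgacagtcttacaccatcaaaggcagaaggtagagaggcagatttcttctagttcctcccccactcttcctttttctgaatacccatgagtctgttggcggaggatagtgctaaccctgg
Cd3e, chr9:45009562-45009861, minus strand: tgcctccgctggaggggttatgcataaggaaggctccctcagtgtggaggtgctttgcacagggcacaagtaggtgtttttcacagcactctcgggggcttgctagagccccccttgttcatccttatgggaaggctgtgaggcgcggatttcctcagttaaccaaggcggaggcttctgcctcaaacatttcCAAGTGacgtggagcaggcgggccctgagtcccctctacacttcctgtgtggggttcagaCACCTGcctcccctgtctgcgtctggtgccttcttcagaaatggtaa
The windows held 4, 1 and 2 matches to CANNTG, a motif found in 72.3% of 32851 mouse promoter windows of that length. None of the 3 windows held TGTGGT, the core letters bound by RUNX factors, on either strand (16.8% of all windows did), or TATAAA on either strand (13.6% did). A match is only a match of letters, and no binding was measured. Promoter windows of 8 of the 9 genes were found in the RefSeq table.

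Cd247 encodes the zeta chain, which carries more phosphorylation motifs than any other chain of the complex. Its probes disagreed in direction. On the brightest, log2 signals were 10.79, 10.51 and 10.94 in CD103+ and 10.52, 10.31 and 10.64 in CD103- cells. The groups overlapped, because CD103+ array 2 lay under the highest CD103- array, and the difference was 0.26 (SE 0.173, 95% interval -0.15 to 0.66, adjusted p = 0.522). A second probe, detected on all arrays, read 8.32, 7.98 and 8.22 in CD103+ and 8.28, 8.46 and 8.67 in CD103- cells, a difference of -0.29 (adjusted p = 0.467), and the third gave -0.32 (adjusted p = 0.643). Within each array the first probe exceeded the second by 2.47, 2.53 and 2.72 log2 units in CD103+ and by 2.24, 1.85 and 1.97 in CD103- cells. That gap was 0.55 wider in CD103+ cells without overlap (two-sided exact permutation p = 0.1, the smallest possible, for a contrast chosen after the values were seen and the smallest p among 8 such pairs of probes). Fcer1g, the FcR gamma chain that can stand in for zeta in some T cells, was higher in CD103+ cells by 1.60 log2 units (SE 0.143, adjusted p = 0.00518). Its log2 signals were 12.55, 12.67 and 12.47 in CD103+ and 10.93, 11.10 and 10.86 in CD103- cells, far apart on all arrays. Fcer1g is also a gene of macrophages and NK cells, and the summed macrophage markers lay higher in CD103+ cells. The NK cell sum includes Fcer1g and is mostly made of it, so that sum adds nothing about the source of Fcer1g. The part of such cells in the Fcer1g difference was not tested.

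The proximal kinase and adaptors gave small negative differences on every probe. Zap70, the kinase recruited to the phosphorylated CD3 chains, lay at 12.44, 12.35 and 12.57 in CD103+ and at 12.55, 12.57 and 12.59 in CD103- cells. CD103+ array 3 fell among the CD103- arrays, so the groups overlapped, with a difference of -0.12 (SE 0.135, 95% interval -0.43 to 0.20, adjusted p = 0.720). The other 2 Zap70 probes gave -0.25 and -0.24 (adjusted p = 0.511 and 0.496). Lat, the membrane adaptor that ZAP-70 phosphorylates, lay at 11.94, 11.94 and 11.46 in CD103+ and at 12.08, 12.19 and 11.62 in CD103- cells. Array 3 was the lowest in both populations, and the difference of -0.19 (SE 0.215, 95% interval -0.69 to 0.32, adjusted p = 0.720) was smaller than the spread within CD103+ (SD 0.28) and CD103- (SD 0.30). A dimmer Lat probe gave -0.27 (adjusted p = 0.573). Lcp2, which encodes the adaptor SLP-76, lay at 10.66, 10.61 and 10.51 in CD103+ and at 10.45, 10.98 and 10.87 in CD103- cells. Here CD103- array 1 was the lowest of all 6 and the other CD103- arrays the highest. The difference was -0.17 (SE 0.178, 95% interval -0.59 to 0.24, adjusted p = 0.684), and it was 0.15 when the dim CD103- arrays 2 and 3 were left out, against a single CD103- array. The remaining Lcp2 probes gave -0.08 and -0.05 (adjusted p = 0.843 and 0.922).

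**Figure D2:**
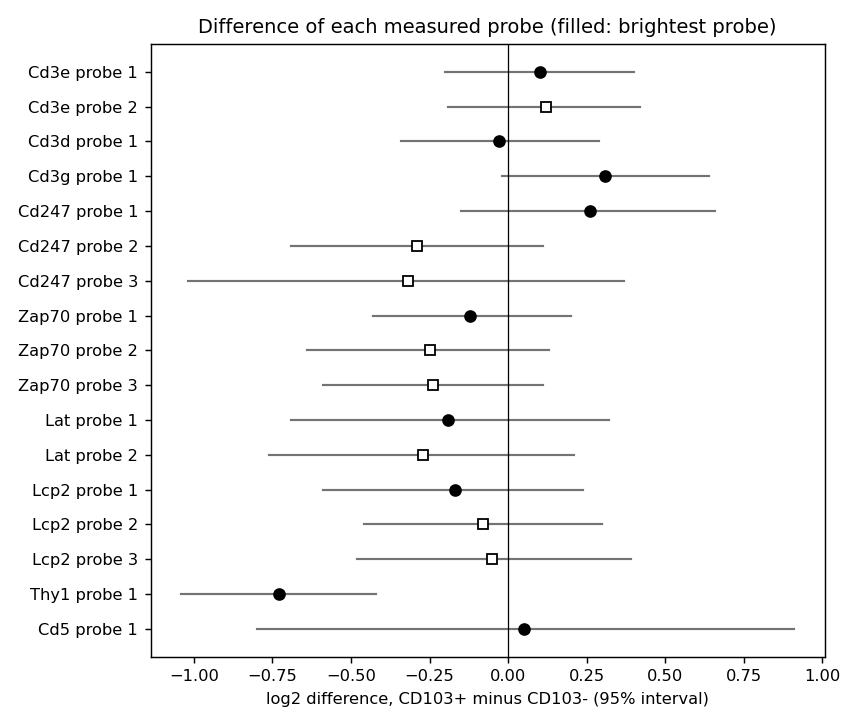
Log2 difference between CD103+ and CD103- cells for each of the 17 tested probes, with its 95% interval from limma; filled circles are the brightest probe of each gene. Of the 17 differences 12 are negative, and the only interval that leaves out 0 is that of Thy1, at -1.04 to -0.42.

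Thy1 stood farthest from 0 among the members. Its bright probe read 12.92, 12.93 and 13.09 in CD103+ cells and 13.73, 13.72 and 13.69 in CD103- cells. All CD103+ arrays lay well below all CD103- arrays, and the bright and the dim CD103- arrays were nearly level. The level was 1.66-fold lower in CD103+ cells (95% interval 1.34-fold to 2.06-fold, log2 difference -0.73, SE 0.134, n = 3 per group), with an unadjusted p of 0.000795 and an adjusted p of 0.0601, just beyond the threshold. It passed the threshold in 13 of 22 alternative settings, with adjusted p from 0.000718 to 0.871. It was the 1 of 9 members past the threshold in the authors' values (adjusted p = 0.0197, 2.01% of all genes passing), without background correction (2.14% of all genes) and with an intensity trend in the variance (2.32%). The difference was -0.70 to -0.79 when any 1 array was left out, passing only without CD103- array 1 (adjusted p = 0.0454). A second Thy1 probe was above background on 1 of 6 arrays and was not tested.

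The Thy1 difference was also present in the deposited signals before any scaling between arrays, when Thy1 was read against a CD3 probe of the same array. The log2 ratio of the Thy1 signal to the Cd3d signal was -0.83, -0.77 and -0.79 in CD103+ and -0.06, -0.12 and -0.28 in CD103- cells. These ratios did not overlap, and the mean was 0.64 log2 units apart (-0.80 ± 0.03 against -0.15 ± 0.12, SD, n = 3). Against Cd3e the change was -0.77 and against Cd3g -0.80, again without overlap. By contrast the ratio of Cd3g to Cd3d was 0.75, 0.61 and 0.64 in CD103+ and 0.72, 0.43 and 0.38 in CD103- cells, which overlapped. These ratios were chosen after the values were seen, their two-sided exact permutation p was 0.1 for Thy1 over each CD3 gene and 0.3 for Cd3g over Cd3d, and only their change between populations can be read, since different probes bind with different strength.

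**Figure D3:**
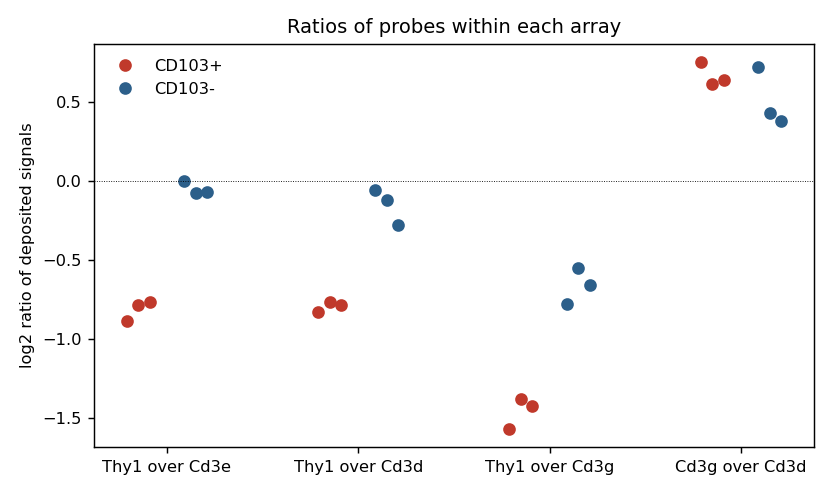
Log2 ratio of the deposited signals of 2 probes on the same array, for 3 CD103+ and 3 CD103- arrays (points in the order of replicates 1 to 3). The ratios of Thy1 to each CD3 gene are lower on all CD103+ arrays than on any CD103- array, while those of Cd3g to Cd3d overlap.

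Cd5 was represented by 1 dim probe. Its log2 signals were 6.15, 5.75 and 6.28 in CD103+ and 5.32, 5.88 and 6.81 in CD103- cells, with a detection p up to 0.0459. CD103- cells spanned the whole range, and the difference of 0.05 (SE 0.365, 95% interval -0.80 to 0.91, adjusted p = 0.958) was too imprecise to place the gene on either side. Cd6 encodes a surface receptor closely related to CD5, and its 4 probes, though it is no member, read the same way as each other. On the brightest the log2 signals were 12.43, 12.36 and 12.28 in CD103+ and 12.91, 12.78 and 12.71 in CD103- cells. All 4 probes had CD103+ arrays below all CD103- arrays, with differences of -0.54 to -0.42, and the brightest did not pass at -0.44 (SE 0.138, adjusted p = 0.209).

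**Figure D4:**
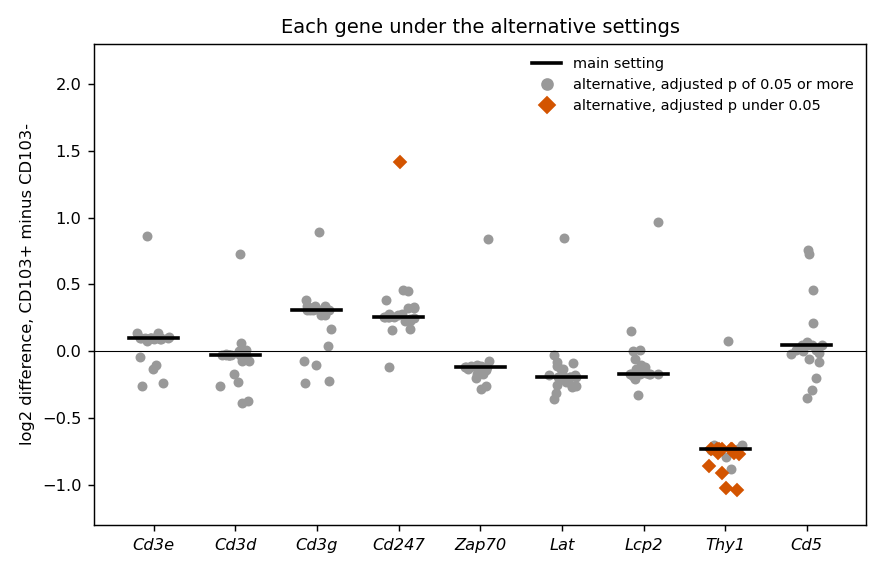
Log2 difference of each gene under the main setting (black bar) and under the alternative settings (points; orange diamonds have an adjusted p under 0.05). Thy1 lies between -1.04 and -0.70 under every setting but median scaling over all probes. There the median difference of all kept probes itself moved to 0.96 and Thy1 reads 0.08.

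Beyond the members, 92 further genes of the receptor pathway were listed in 5 groups, of which 77 had a named probe and 69 were measured. None of the 69 passed the adjusted threshold (1.38% of all genes did), and 9 had an unadjusted p under 0.05 in limma's test, 3 higher and 6 lower, beside 1276 of all 8999 genes (14.2%), 805 higher and 471 lower. Their median log2 difference was -0.14 beside 0.05 over all genes, and 49 of the 69 differences, 71.0%, were negative beside 43.1% of all genes. Groups were separated in 19 of them, 14 lower and 5 higher in CD103+ cells, beside 8.72% lower and 14.5% higher of all genes. Pag1 and Ubash3b are among the higher genes in both counts. They were detected on all CD103+ arrays and on no CD103- array, and so passed the filter only through the CD103+ arrays. The list was written with earlier results of these data known, so these counts describe it and test nothing.

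Among receptor chains and coreceptors, 6 were measured with a median of -0.28. Cd8b1, the CD8 beta chain, had log2 signals of 10.48, 10.35 and 10.64 in CD103+ and 10.77, 10.97 and 10.87 in CD103- cells, a difference of -0.38 (adjusted p = 0.296) with separated groups. Its dimmer probes gave -0.59 and -0.95 (adjusted p = 0.684 and 0.429), both with overlap. Cd8a was not detected on any array. Cd4, close to background, gave -0.47 (adjusted p = 0.364). Ptprc, the phosphatase CD45 that primes receptor kinases, gave 0.01 on its brightest probe and -0.04 to 0.85 over 4 probes. The 8 kinases measured had a median of -0.11: Map4k1, a negative regulator that phosphorylates SLP-76, gave -0.29 (adjusted p = 0.406), Txk, a Tec family kinase, -0.32 (adjusted p = 0.485), and Fyn, a Src family kinase, -0.13 (adjusted p = 0.789). A second Fyn probe, close to background, gave -0.53 (adjusted p = 0.225) with separated groups. Lck had no named probe in the tables used and was not analysed here.

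By the brightest probe of each, the 18 adaptors had a median of -0.14, with values from -0.44 to 0.69. A dimmer probe of the adaptor Fyb gave -0.83 (adjusted p = 0.0664) with separated groups, while its brightest probe gave -0.14 (adjusted p = 0.664) with overlap. Skap1, an adaptor that links the receptor to integrin activation, gave -0.41 (SE 0.170, adjusted p = 0.319) with separated groups. Pag1, which holds the inhibitory kinase Csk at the membrane, was detected on all 3 CD103+ arrays and on no CD103- array. It passed the filter only through the CD103+ arrays, so no test of it is given, and its difference of 0.69 turned to -0.28 with median scaling. The 19 enzymes and effectors had a median of -0.21, and 15 of them were negative. Itpkb, an inositol trisphosphate kinase, gave -0.49 (SE 0.147, adjusted p = 0.200) and the GTPase Rac2 -0.42 (adjusted p = 0.351), both with all CD103+ arrays below all CD103- arrays. A second Itpkb probe gave 0.07 (adjusted p = 0.870). Plcg1, the phospholipase that LAT recruits, was not detected on any array.

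The 18 negative regulators had a median of -0.12. Dok2, an adaptor that recruits inhibitors of Ras, had log2 signals of 11.81, 11.75 and 11.90 in CD103+ and 12.26, 12.62 and 12.62 in CD103- cells. The groups were separated, the difference was -0.68 (SE 0.158, adjusted p = 0.111), and it was -0.44 against CD103- array 1 alone. Sla2, an adaptor that lowers receptor levels at the surface, lay at 9.33, 9.52 and 9.36 in CD103+ and at 8.90, 9.07 and 9.0 in CD103- cells. That difference of 0.42 (SE 0.138, adjusted p = 0.235) ran the other way, and a second Sla2 probe gave -0.12 (adjusted p = 0.829).

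**Figure D5:**
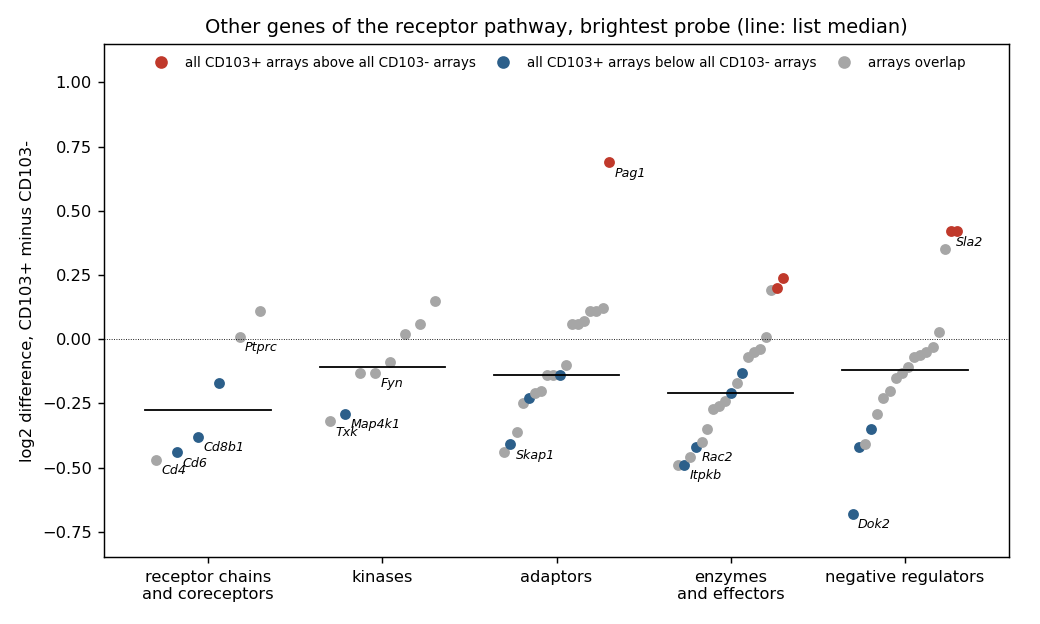
Log2 difference of the brightest probe of 69 genes of the receptor pathway outside the 9 members, in 5 groups, with the group median as a line; red and blue points are genes whose arrays do not overlap between populations. Group medians lie between -0.28 and -0.11, and no gene passed the adjusted threshold.

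The mean profile of the 3 CD3 genes over the 6 arrays spanned little, but under the main scaling it followed the populations. Cd3d by itself did not, with overlap and a difference of -0.03. With median scaling the differences of Cd3e, Cd3d and Cd3g were all negative, at -0.24, -0.37 and -0.22. The mean of Cd3e, Cd3d and Cd3g, each centred on its own mean, was 0.030, 0.108 and 0.056 on the CD103+ arrays and -0.062, -0.065 and -0.067 log2 units on the CD103- arrays, under this scaling. Of genes outside the pathway lists, those nearest to it by root mean square difference over the 6 arrays were Ss18l2 (0.0121 log2 units), Fam53a (0.0203), Atp6v1e1 (0.0254), Gde1 (0.0267) and Rpa1 (0.0269), beside a median of 0.232 over all such genes. Their own differences were 0.09 to 0.13, and none passed the threshold. Both follow from picking these genes for their closeness to the CD3 profile. Among the other members Zap70 was the nearest at 0.147 and Cd247 followed at 0.185. Thy1 at 0.435 and the dim Cd5 at 0.473 lay farther from the CD3 profile than 87.6% and 90.9% of genes.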

How the data were processed

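Transcripts were measured on Illumina bead arrays hybridised with biotin-labelled cRNA, per the labels' protocols. The deposited intensity values are 1 signal per probe and array, not normalized and still holding the background, as their differing array means show. The value beside each, a detection p-value per the file headers and entered here as a score, was read as a test of the probe against that array's negative controls. A second deposited table holds log2 values by the authors, whose column medians were 5.18 to 5.42; how they were scaled is not given in the sources used here. Of 45281 probes, 18 whose values were shifted by text inside the line were left out, and 34874 had a single gene symbol, 18 several and 10371 none.

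The neqc function (limma 3.58.1, R 4.3.3) corrected the signals (offset 16, background from the detection p-values), and quantile-normalized them. The filter asked for a detection p under 0.05 on 3 or more arrays and left 17462 probes. The difference CD103+ minus CD103- came from lmFit and eBayes (two-sided), p-values were adjusted by Benjamini-Hochberg across the 17462 probes, and the threshold was 0.05. A gene stands for its brightest kept probe. Of all probes 206 passed, 162 higher and 44 lower, and 83 with the replicate number as a block. Arrays of the same number in both populations correlated at 0.170, 0.125 and 0.305 in their deviations from the population means, so by that measure, not by the labels, the numbers may pair the arrays; the block changed the call of no member or pathway gene. The fit was tested on simulated data.

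The members and lists were chosen with earlier results of these data known. Named beside the 9 members were set genes of the pathway, the 2 genes with the smallest p in each pathway list (no gene passed), Itgae, and the 5 genes nearest to the CD3 profile. Fcer1g, Fyb and Ubash3b were named after their values were seen. The alternatives were other background corrections, offsets, scalings, filters, variance models and thresholds, the authors' values, the replicate block, other probes, leaving out each array, and leaving out both dim CD103- arrays, which leaves 1 CD103- array. Median scaling used the probes detected on all arrays, and, chosen after seeing the data, all probes.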

Additional observations from a re-analysis of the deposited data

How the results depend on the processing

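The count of 9 members past the threshold was 0 in the reported setting and in 10 of 24 alternatives, among them the replicate block and an adjusted p under 0.01. The setting of bright arrays alone, also at 0, sets 3 CD103+ arrays against 1 CD103- array, which is assumed to vary like the CD103+ arrays, so its counts say little about stability. It was 1 in the other 14, and leaving out each array gave 0 to 1. That gene was Thy1 in 13 of them and Cd247 (1.42) with median scaling over all probes, which moved the median of all kept probes to 0.96. Pathway genes past the threshold, 0 of 69 as reported, were 2 (Cd6 and Dok2) without background correction and with an intensity trend, 1 in the authors' centred values, 19 with median scaling over all probes, and 0 to 2 when leaving out each array, the 2 (Dok2 and Orai1) without CD103- array 1. The 206 probes past the threshold became 321 without background correction, 95 with centred median scaling, 313 in the authors' values, 369 with an intensity trend, 397 with array weights, 83 with the replicate block, 135 on the bright arrays alone (1 CD103- array), 60 at an adjusted p under 0.01, 7154 with median scaling over all probes, and 52 to 857 when leaving out each array, the highest without CD103- array 1. The replicate block changed no other call.

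Differences that changed sign were all short of the threshold. With median scaling Cd3e was -0.24, Cd3g -0.22, Cd5 -0.35 and Pag1 -0.28, where the median difference of all kept probes was -0.14. After centring they were -0.10, -0.07, -0.20 and -0.14, with Lcp2 at 0.01 and Fyn at 0.07. In the authors' values, with a median of 0.13, Cd3e was -0.13, Cd3g -0.10 and Fyn 0.08, and after centring Cd3e was -0.26, Cd3g -0.24 and Cd5 -0.08. Cyclic loess put Cd3e at -0.04. Array weights put Cd5 at -0.02 and Ptprc at -0.11, and no background correction put Cd5 at -0.00. On the bright arrays alone Cd3d was 0.06, Lcp2 0.15 and Txk 0.00. Leaving out each array gave -0.07 to 0.01 for Cd3d, -0.29 to 0.46 for Cd5 and -0.11 to 0.22 for Ptprc. The dimmer Cd247 probes gave -0.29 and -0.32, and the mean of its probes -0.12. Median scaling over all probes turned Cd3d (0.73), Zap70 (0.84), Lat (0.85), Lcp2 (0.97), Thy1 (0.08), Cd4 (0.15), Cd6 (0.53), Cd8b1 (0.77), Dok2 (0.31), Fyn (1.03), Itpkb (0.67), Map4k1 (0.86), Rac2 (0.59), Skap1 (0.67) and Txk (0.22) upward together with the median difference of all kept probes. Thy1 was -0.88 once that shift was taken off. For the other changes the cause was not tested. Cd5, near background, had a 95% interval of -0.80 to 0.91.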

Other observations

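Probes for receptor gene segments were looked up after the values were seen. Trbv13-2, the beta chain segment that many NKT cell receptors use, had log2 signals of 14.58, 14.64 and 14.63 in CD103+ and 14.77, 14.42 and 14.58 in CD103- cells. The groups overlapped, and the difference was 0.03 (SE 0.147, adjusted p = 0.948), with a second Trbv13-2 probe at -0.23 (adjusted p = 0.497). Trbv13-1, a segment of the same family, gave -0.07 (adjusted p = 0.857). Trgv4, a gamma chain segment, lay at 12.43, 12.64 and 12.57 in CD103+ and at 12.16, 12.17 and 12.17 in CD103- cells. All CD103+ arrays were above all CD103- arrays, and the difference of 0.38 did not pass (SE 0.134, adjusted p = 0.263). Of the gamma delta T cell markers, Blk and Sox13 gave differences of 3.8 and 1.43. Both were detected on all CD103+ arrays and on no CD103- array. They passed the filter only through the CD103+ arrays, so no test of them is given. Trgv5 and Trgv7, both detected on 2 of 3 CD103- arrays, gave 0.64 and 0.80 (adjusted p = 0.235 and 0.290). Segments of one family share sequence, so a probe may bind more than the segment it is named for.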
